A study of Mus musculus with 11 samples.

Results

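Tg, Prkcq and Igf2bp1 were among the genes whose RNA was lowest, relative to control, when YAP and TAZ were knocked down in unheated mouse melanoma cells. They are 3 of 54686 entries in the deposited gene table and 3 of the 12626 genes that reached 1 FPKM in 2 or more libraries and were tested. Tg and Igf2bp1 reached it only in control siRNA libraries, whereas Prkcq did so in every library. They were chosen from the difference between unheated YAP/TAZ siRNA and unheated control siRNA libraries in mean log2(FPKM + 1). That difference is therefore a description of the 3 genes and is given without a test. FPKM is the number of fragments assigned to a gene, scaled to the length of its transcripts and to the fragments of the library, so that levels of different genes can be set side by side.

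RNA was sequenced from B16-OVA cells, a C57BL/6J skin melanoma line that carries ovalbumin as a model antigen. All cells were transfected with siRNA: a control siRNA or a pool aimed at both YAP and TAZ, which are encoded by Yap1 and Wwtr1. Control siRNA cells gave 3 unheated libraries and 2 heated ones (replicates 1 and 3), while cells with the YAP/TAZ pool gave 3 of each kind. Heated cells were placed at 45 °C for 1 h, at 48 h after transfection, and harvested after 6 h at 37 °C. Whether replicates came from separate cultures is not in the labels, and the p-values therefore reflect the spread among these libraries alone, part or all of which may be technical. The data come from 1 cell line and 1 siRNA pool, so that effects of the siRNAs other than on YAP and TAZ cannot be told apart from those on YAP and TAZ.

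YAP and TAZ are transcriptional co-activators held back by the Hippo kinase cascade. They bind no DNA themselves and act on genes mainly through TEAD transcription factors. Tg encodes thyroglobulin, the large secreted protein on which the thyroid makes its hormones. Prkcq encodes protein kinase C theta, a kinase known best for relaying the T cell receptor signal to NF-κB. Igf2bp1 encodes an RNA-binding protein of fetal tissue and tumours, which binds many mRNAs, those marked with N6-methyladenosine among them, and shields them from decay.

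On GRCm38, Tg (ENSMUSG00000053469) lies on the plus strand at chr15:66670753-66850721 and its main transcript has 48 exons and 8298 coding bases. Prkcq (ENSMUSG00000026778) lies on the plus strand at chr2:11172108-11301222, with 18 exons and 2121 coding bases. Igf2bp1 (ENSMUSG00000013415) lies on the minus strand at chr11:95957163-96005940, with 15 exons and 1731 coding bases. One fragment on such a gene was worth about 0.0027 to 0.0039 FPKM for Tg and Igf2bp1 and about 0.0064 to 0.0092 FPKM for Prkcq. Every value of the 3 genes given below lay well above those steps.

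Igf2bp1 and Prkcq have close relatives whose transcripts resemble theirs, so the coding stretches most alike were set side by side. Over aligned coding bases, Igf2bp1 shared 70.9% with Igf2bp2 and 69.8% with Igf2bp3, and no identical run exceeded 20 bases. Prkcq shared 68.6% with Prkcd, with a longest identical run of 23 bases, and 64.5% with Prkch. In the most similar windows of 75 bases, 15 bases differed between Igf2bp1 and Igf2bp2 and 12 between Prkcq and Prkcd. Capitals mark the bases that differ within each pair, and each sequence is read 5′ to 3′ along the gene's own strand. The Igf2bp1 window is in exon 1 at chr11:96005459-96005533 (minus strand) and the Igf2bp2 window in exon 1 at chr16:22162786-22162860 (minus strand). The Prkcq window is in exon 8 at chr2:11248214-11248288 (plus strand) and the Prkcd window in exon 7 at chr14:30605482-30605556 (minus strand). They are printed because they show how far the members and their relatives can be separated in sequence.
Igf2bp1: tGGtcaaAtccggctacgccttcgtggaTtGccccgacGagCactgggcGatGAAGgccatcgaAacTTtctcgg
Igf2bp2: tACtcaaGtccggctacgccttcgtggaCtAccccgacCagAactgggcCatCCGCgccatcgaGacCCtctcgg
Prkcq: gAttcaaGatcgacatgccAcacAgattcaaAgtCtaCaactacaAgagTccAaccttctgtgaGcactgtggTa
Prkcd: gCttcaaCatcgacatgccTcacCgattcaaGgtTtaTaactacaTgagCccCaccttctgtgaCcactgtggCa

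Libraries held about 30.5 to 43.9 M fragments (M, mega), as read from the smallest steps between low values. This depth is approximate, since most low values were not whole multiples of the step. The libraries correlated at 0.977 to 0.984 across genes within groups and 0.90 to 0.958 between groups. All 8 melanocyte markers were tested and summed to between 6462 and 8426 FPKM per library. Of 6 thyroid follicular cell markers, 5 stayed below 1 FPKM in every library, and all 10 T lymphocyte markers did so too. The summed level of the T lymphocyte markers was 0.243 to 0.402 FPKM in unheated control libraries and 0.369 to 0.556 FPKM in unheated YAP/TAZ siRNA libraries. After heat it was 0.683 to 0.703 FPKM with control siRNA and 0.459 to 0.536 FPKM with the pool, lower where Prkcq was low, and its part in the result was not tested.

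Both siRNA targets were low wherever the YAP/TAZ pool was used. Yap1 stood at 7.26, 5.79 and 15.6 FPKM in unheated control libraries and at 2.75, 3.02 and 2.54 FPKM in unheated YAP/TAZ siRNA libraries. After heat, control siRNA libraries held 10.9 and 5.96 FPKM, and those with YAP/TAZ siRNA held 2.61, 2.26 and 2.29 FPKM. The control libraries of Yap1 varied widely, but none overlapped a YAP/TAZ siRNA library. Yap1 fell by 1.38 ± 0.30 on the log2(FPKM + 1) scale without heat (estimate ± standard error, limma adjusted p = 0.00445). After heat the difference was -1.43 ± 0.34 (limma adjusted p = 0.00593), and without heated control replicate 1 it was -1.04 with a limma adjusted p of 0.0698, which ends the call. Wwtr1 stood at 5.38, 6.28 and 8.20 FPKM in unheated control libraries and at 1.83, 1.83 and 1.65 FPKM in unheated YAP/TAZ siRNA libraries. Its heated libraries held 5.50 and 8.47 FPKM with control siRNA and 1.72, 1.40 and 1.55 FPKM with the pool. Wwtr1 fell both without heat, by 1.45 ± 0.16 (limma adjusted p = 6.1e-05), and after heat, by 1.62 ± 0.17 (limma adjusted p = 6.1e-05).

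Tg RNA was present in these melanoma cells under control siRNA and below 1 FPKM under YAP/TAZ siRNA. In unheated control libraries it measured 8.55, 8.61 and 8.80 FPKM. In unheated YAP/TAZ siRNA libraries it measured 0.544, 0.435 and 0.453 FPKM. The lowest control library was 15.7-fold above the highest YAP/TAZ siRNA library, and the means of 8.66 ± 0.13 (SD, n = 3) and 0.478 ± 0.058 FPKM (SD, n = 3) differed 18.1-fold. On the log2(FPKM + 1) scale, which understates changes of low values, the difference was -2.71 ± 0.07. In these bulk libraries, fewer cells that express a gene and less RNA per cell cannot be told apart.

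After heat, the contrast in Tg was seen again in libraries that had no part in choosing the gene. The heated control libraries measured 8.23 and 8.33 FPKM, and the heated YAP/TAZ siRNA libraries 0.889, 0.585 and 0.726 FPKM. The groups did not overlap, and their means of 8.28 and 0.733 FPKM differed 11.3-fold. Tg fell by 2.42 ± 0.08 on the log2 scale (limma adjusted p = 9.5e-08). The level left under YAP/TAZ siRNA was 5.52% of the control mean without heat (5.03 to 6.29% in single libraries) and 8.86% after heat (7.06 to 10.7%).

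Prkcq was the most abundant of the 3 genes and kept the largest share of its RNA under YAP/TAZ siRNA. It measured 18.4, 19.9 and 19.5 FPKM in unheated control libraries and 3.19, 3.40 and 3.39 FPKM in unheated YAP/TAZ siRNA libraries. The means of 19.3 ± 0.81 (SD, n = 3) and 3.33 ± 0.12 FPKM (SD, n = 3) differed 5.79-fold, a log2 difference of -2.23 ± 0.05. After heat, control siRNA libraries measured 16.5 and 17.6 FPKM, and those with YAP/TAZ siRNA 3.85, 4.19 and 4.09 FPKM. No library of one siRNA reached the range of the other. Prkcq fell by 1.84 ± 0.06 after heat (limma adjusted p = 9.5e-08), and the heated means differed 4.21-fold. The level left was 17.3% of the control mean without heat (16.6 to 17.7% in single libraries) and 23.7% after heat (22.6 to 24.6%).

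Igf2bp1 had the lowest level under control siRNA and was the member with the largest fold after heat. It measured 4.21, 4.72 and 4.12 FPKM in unheated control libraries and 0.269, 0.298 and 0.283 FPKM in unheated YAP/TAZ siRNA libraries. The means of 4.35 ± 0.33 (SD, n = 3) and 0.283 ± 0.014 FPKM (SD, n = 3) differed 15.4-fold, a log2 difference of -2.06 ± 0.08. After heat it measured 6.73 and 5.47 FPKM under control siRNA, above all 3 unheated control libraries, and 0.218, 0.261 and 0.248 FPKM under YAP/TAZ siRNA. Igf2bp1 fell by 2.51 ± 0.09 after heat (limma adjusted p = 1.2e-07), and the heated means differed 25.2-fold. The level left was 6.51% without heat (6.19 to 6.84% in single libraries) and 3.97% after heat (3.57 to 4.28%).

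**Figure D1:**
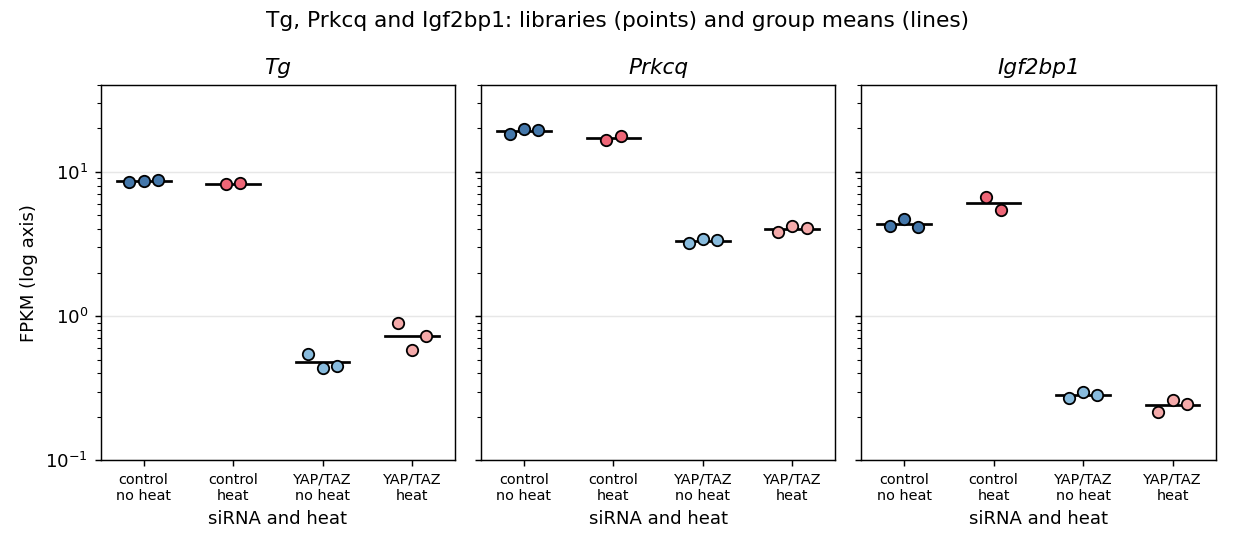
FPKM of Tg, Prkcq and Igf2bp1 in each of 11 libraries (points, logarithmic axis) by siRNA and heat, with the mean of each group as a line. For each gene, every YAP/TAZ siRNA library lies below every control siRNA library, and Igf2bp1 is higher in the 2 heated control libraries (5.47 and 6.73 FPKM) than in the 3 unheated ones. The unheated libraries chose the genes. After heat, 24.6% of all genes tested had every YAP/TAZ siRNA library below every control library.

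All 3 genes were called lower after heat, where 17.9% of all genes tested were called lower (2266 of 12626). Tg and Igf2bp1 passed the filter only through control siRNA libraries, where they were high. Their calls are therefore not independent of the filter. All 3 also had every heated YAP/TAZ siRNA library below every heated control library, as did 24.6% of all genes tested. An exact permutation test over the heated libraries gave a two-sided p of 0.2 for each gene, the smallest that 10 arrangements of 3 against 2 libraries allow. Without heat, where 21.9% of all genes were called lower, the same share has no bearing on genes chosen there. The median log2 difference over all genes tested was 0.02 without heat and 0.13 after heat. After median-of-ratios scaling the latter was 0.02, and calls after heat were split into 3365 higher and 3153 lower genes in place of 4589 and 2266.

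In the order of differences without heat, Tg stood at place 5, Prkcq at place 8 and Igf2bp1 at place 10. The named genes next to them were mt-Ts2 at place 3 (-2.98), Ccn1 at place 6 (-2.56) and Vgll3 at place 11 (-2.04). Places 1, 2, 4, 7 and 9 were held by a microRNA gene, predicted genes and assembled loci, among them Gm12346 at place 9 (-2.11), between Prkcq and Igf2bp1. After heat Tg stood at place 39, Prkcq at place 93 and Igf2bp1 at place 34, while mt-Ts2 stood at place 488, Ccn1 at place 8 and Vgll3 at place 67. The mitochondrial tRNA gene mt-Ts2 ranged from 0.167 to 53.1 FPKM within the unheated control group alone, so its place rested on single libraries. Vgll3, which encodes a TEAD cofactor, ranged from 11.8 to 28.9 FPKM in heated control libraries and from 2.22 to 6.51 FPKM in heated YAP/TAZ siRNA libraries.

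**Figure D2:**
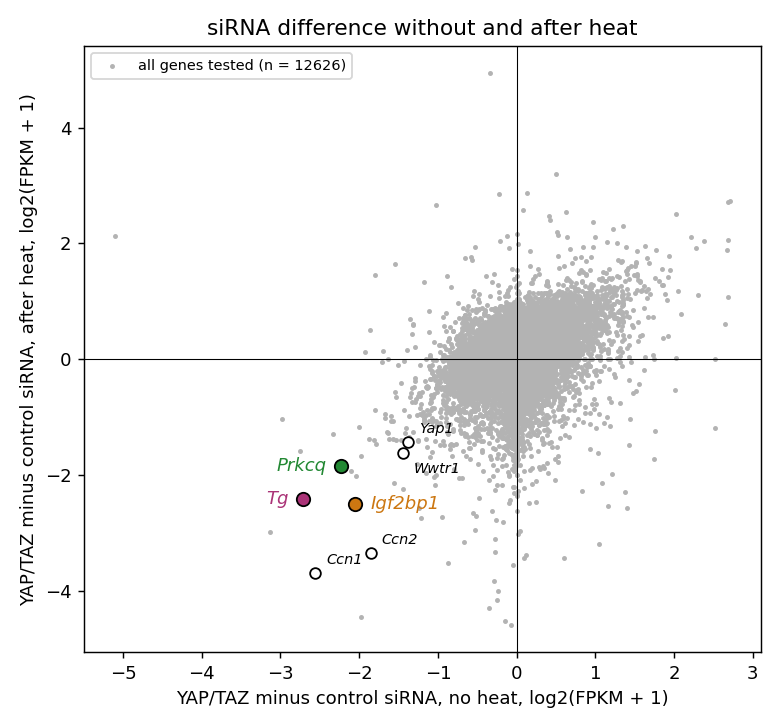
Difference between YAP/TAZ siRNA and control siRNA in mean log2(FPKM + 1) without heat (horizontal axis) and after heat (vertical axis) for 12626 genes (grey), with Tg, Prkcq and Igf2bp1 filled and Yap1, Wwtr1, Ccn1 and Ccn2 open. The 3 filled genes lie at the lower left, between -2.06 and -2.71 without heat and between -1.84 and -2.51 after heat.

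Heat alone moved the 3 genes far less than the siRNA did, and the values below are descriptions, since they rest on the unheated libraries that chose the genes. Under control siRNA, the heated mean was 95.7% of the unheated mean for Tg, 88.5% for Prkcq and 140.2% for Igf2bp1. The log2 differences were -0.06 ± 0.08 for Tg, -0.17 ± 0.06 for Prkcq and 0.40 ± 0.09 for Igf2bp1, beside a median of -0.16 over all genes tested. After median-of-ratios scaling they were 0.09 for Tg, -0.01 for Prkcq and 0.55 for Igf2bp1, so the sign for Tg depends on the scaling. Under YAP/TAZ siRNA the heated mean was 153.5% of the unheated mean for Tg, 121.5% for Prkcq and 85.5% for Igf2bp1.

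The order of the 4 groups differed between the genes. For Tg and Prkcq the order from high to low was unheated control, heated control, heated YAP/TAZ siRNA and unheated YAP/TAZ siRNA. For Igf2bp1 it was heated control, unheated control, unheated YAP/TAZ siRNA and heated YAP/TAZ siRNA. These orders are those of FPKM as deposited and depend on the scaling. After median-of-ratios scaling the control groups of Tg changed places. With that scaling the control groups of Prkcq overlapped, as did the YAP/TAZ siRNA groups of Igf2bp1. The unheated libraries also chose the 3 genes. The order is therefore a description. The siRNA difference was larger after heat than without it by -0.45 ± 0.11 for Igf2bp1, and smaller by 0.28 ± 0.10 for Tg and 0.39 ± 0.08 for Prkcq, on the log2 scale. Over all genes tested, 37.9% had a called interaction of this kind, and the members are given without a call.

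Beside the members, Ccn1 and Ccn2, which encode secreted matricellular proteins and are textbook YAP/TAZ-TEAD targets, had higher levels after heat under control siRNA, as Igf2bp1 did. The Ccn1 level left under YAP/TAZ siRNA was 11% without heat and 6.94% after heat, and that of Ccn2 was 9.05% and 1.42%. Under control siRNA the heated mean of Ccn1 was 763.9% of the unheated mean and that of Ccn2 was 277.0%. The level left was 29.0% and 28.3% for the siRNA target Yap1 and 26.7% and 22.3% for Wwtr1. These shares lay above those of Tg and Igf2bp1 in both conditions, while after heat Prkcq (23.7%) and Wwtr1 overlapped.

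**Figure D3:**
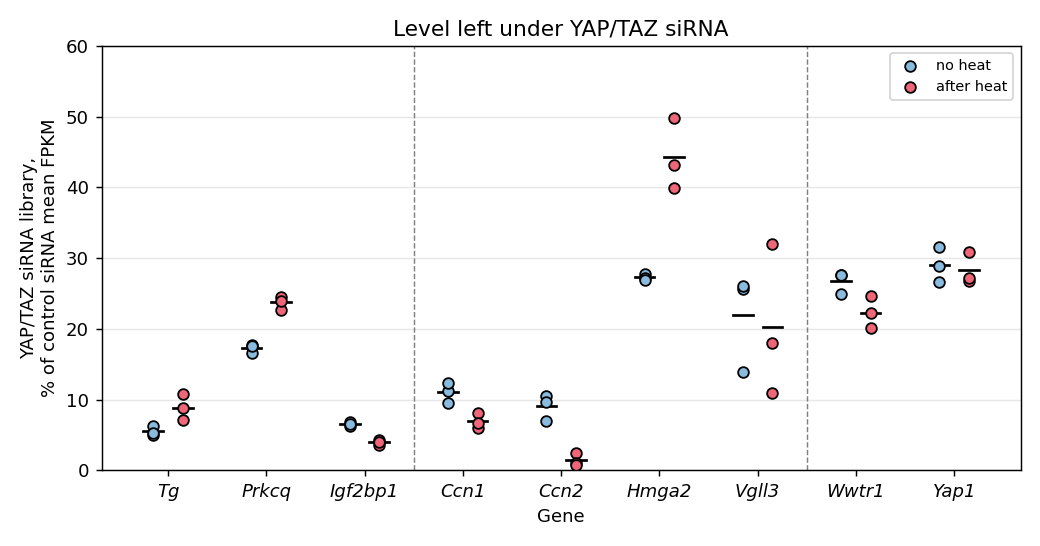
Level in each YAP/TAZ siRNA library as a percentage of the mean FPKM of control siRNA libraries under the same heat condition (points; lines are means), for Tg, Prkcq and Igf2bp1, for Ccn1, Ccn2, Hmga2 and Vgll3, and for the siRNA targets. Tg and Igf2bp1 lie between 3.57 and 10.7% in all libraries, and Prkcq between 16.6 and 24.6%.

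Of 22 YAP/TAZ-TEAD targets, 16 were tested. Without heat 8 fell and 2 rose (median -0.25), and after heat 9 fell and 2 rose (median -0.48). Over all genes tested 21.9% fell and 27.1% rose without heat (median 0.02), and 17.9% fell and 36.3% rose after heat (median 0.13). After median-of-ratios scaling all 11 genes called after heat were lower, and after quantile normalization 11 were lower and 1 was higher. Ccn1 fell by 2.56 ± 0.10 without heat (limma adjusted p = 2.4e-07) and by 3.69 ± 0.11 after heat (limma adjusted p = 8.6e-08). Ccn2 was lower by 1.85 ± 0.08 and 3.35 ± 0.09. It passed the filter only through control siRNA libraries, where it was high. Its calls as lower, which are among those counted above, were favoured by that filter, and its values are a description. Without heat, the tissue factor gene F3 fell by 0.70 ± 0.06 and the growth factor gene Tgfb2 rose by 0.97 ± 0.09. In heated cells, Amotl2, which encodes an angiomotin-like scaffold, was lower under YAP/TAZ siRNA by 1.43 ± 0.07, and the stress gene Gadd45b by 1.48 ± 0.07. The Gadd45b mean went with heat from 2.73 to 12.4 FPKM under control siRNA and from 2.90 to 3.82 FPKM under YAP/TAZ siRNA.

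The genes that make or supply thyroid hormone were mostly silent in these cells. Only 3 of 20 listed genes were tested, of which 1 rose without heat, and 1 rose and 1 fell after heat. Thra, which encodes thyroid hormone receptor alpha, rose under YAP/TAZ siRNA by 0.67 ± 0.07 without heat (limma adjusted p = 3.3e-05) and by 0.52 ± 0.07 after heat (limma adjusted p = 3.3e-04). Slc5a5, which encodes the sodium/iodide symporter, was at most 0.104 FPKM in unheated control libraries and at 3.09 and 3.79 FPKM in heated ones. In heated YAP/TAZ siRNA libraries it ranged from 0.471 to 0.557 FPKM, a difference of -1.54 ± 0.08. Slc5a5 passed the filter only through the heated control libraries, where it was high. Its call as lower after heat was favoured by that filter, and its values are a description.

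The genes that overlap Tg were near 0. Sla, encoded on the opposite strand within Tg, reached 0.014 FPKM and shares no exon bases with it, and the antisense gene Gm17140, with 112 shared exon bases, reached 0.072 FPKM in 1 library and 0 in the others. Ccn4, another CCN family gene, lies 40599 bases beyond the end of Tg, and it fell without heat by 1.20 ± 0.33 (limma adjusted p = 0.0138). Its difference after heat was -0.97 ± 0.37 (limma adjusted p = 0.0494), a call that ended in 11 of 17 alternatives. Phf20l1, on the other side at 22777 bases, rose without heat by 0.26 ± 0.07 (limma adjusted p = 0.0086) and measured -0.12 ± 0.07 after heat (limma adjusted p = 0.193).

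After heat, Prkcq was the only tested gene of the protein kinase C superfamily whose difference exceeded 1 on the log2(FPKM + 1) scale. This scale understates changes of low values, and the difference of its relative Prkcz after heat reached 1.43 among the alternatives. Without heat, Prkcq was chosen for the size of its difference, so its lead over the relatives there is no result. The superfamily holds conventional and atypical isoforms among others, beside the protein kinases D and N. Of 14 relatives, 11 were tested. Without heat 4 rose, 1 fell and 6 were not called (median 0.23), and after heat 4 rose, 2 fell and 5 were not called (median 0.04). Over all genes tested 27.1% rose and 21.9% fell without heat, and 36.3% rose and 17.9% fell after heat. After median-of-ratios scaling the heated split was 3 higher and 3 lower, as it was after quantile normalization.

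Among those relatives, the atypical isoforms moved apart. Prkci fell by 0.64 ± 0.07 without heat (limma adjusted p = 4.7e-05) and by 0.66 ± 0.07 after heat (limma adjusted p = 8.1e-05). Prkcz was higher by 0.61 ± 0.07 and by 0.75 ± 0.08. It passed the filter only through YAP/TAZ siRNA libraries, where it was high. Its calls as higher, which are among those counted above, were favoured by that filter, and its values are a description. The conventional isoform Prkca rose by 0.32 ± 0.06 in both comparisons.

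Of the relatives aligned with Prkcq above, Prkcd was not called lower and Prkch was too low to be tested. Prkcd, which like Prkcq needs diacylglycerol but no calcium, measured 5.06, 5.38 and 5.19 FPKM in unheated control libraries and 6.39, 5.96 and 5.39 FPKM in unheated YAP/TAZ siRNA libraries. Its difference of 0.15 ± 0.06 was not called without heat (limma adjusted p = 0.0757). After heat it was 0.24 ± 0.07 (limma adjusted p = 0.018), but 0.13 after median-of-ratios scaling (limma adjusted p = 0.15), 0.15 after quantile normalization (limma adjusted p = 0.113) and 0.18 without heated control replicate 3 (limma adjusted p = 0.137). Prkch stayed at or below 0.0174 FPKM in every library.

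**Figure D4:**
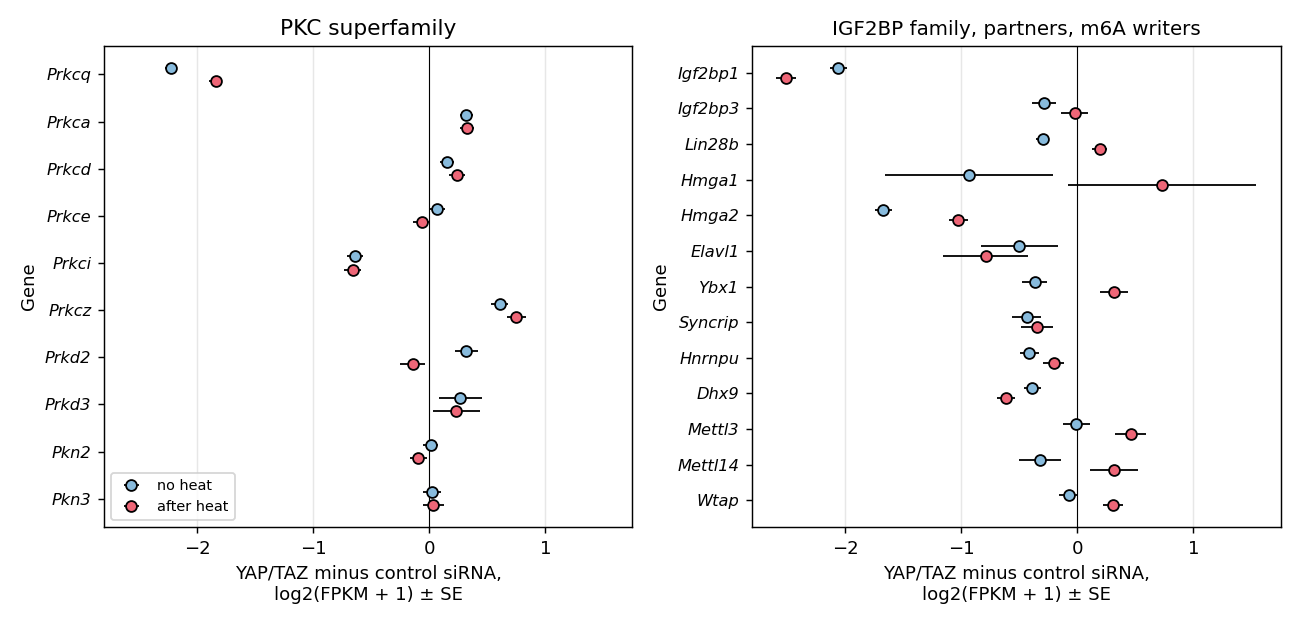
Difference between YAP/TAZ siRNA and control siRNA in log2(FPKM + 1), with standard error bars, without heat (blue) and after heat (red), for Prkcq and 9 of its 11 tested relatives (left) and for Igf2bp1 and 12 tested genes of its family, partners and N6-methyladenosine writers (right). Prkcq (-2.23 and -1.84) and Igf2bp1 (-2.06 and -2.51) lie farthest to the left among the genes shown in their panels, and the next farthest is Hmga2 (-1.67 and -1.02). Without heat, that position follows from how Prkcq and Igf2bp1 were chosen.

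Of 24 genes listed for signalling through protein kinase C theta, 15 were tested. Without heat 5 rose and 2 fell (median 0.13), and after heat 4 rose and 3 fell (median 0.03). These counts lie near the shares over all genes tested, of which 27.1% rose and 21.9% fell without heat and 36.3% rose and 17.9% fell after heat. After median-of-ratios scaling the splits were 4 higher and 3 lower without heat, and 3 higher and 4 lower after heat. Card14, which encodes a CARD scaffold upstream of NF-κB, rose by 0.31 ± 0.07 without heat and 0.61 ± 0.08 after heat. Ikbkg, which encodes the regulatory subunit of the IκB kinase, rose by 0.35 ± 0.08 without heat, and after heat its difference was 0.37 ± 0.08 (limma adjusted p = 0.00463), or 0.27 without heated control replicate 1 (limma adjusted p = 0.054). Wipf1, an actin regulator, rose after heat by 0.43 ± 0.07, and without heat its difference was 0.23 ± 0.06 (limma adjusted p = 0.0145), or 0.19 without unheated control replicate 3 (limma adjusted p = 0.0561).

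Of the genes lower under YAP/TAZ siRNA in that list, Nfkb1 and Stk39 were so without heat and Rel and Traf6 after heat. Nfkb1, an NF-κB subunit, fell without heat by 0.34 ± 0.06, and its call after heat (-0.18 ± 0.07, limma adjusted p = 0.0453) ended in 12 of 17 alternatives. The kinase gene Stk39 fell without heat by 0.33 ± 0.06. In heated cells, Rel, another NF-κB subunit, was lower under YAP/TAZ siRNA by 0.55 ± 0.10, and the ubiquitin ligase gene Traf6 by 1.63 ± 0.30 (limma adjusted p = 0.0016). The subunits did not all go the same way. Rela was called higher in heated cells (0.275 ± 0.052, limma adjusted p = 0.00177) and not called without heat (0.098 ± 0.047, limma adjusted p = 0.113). Under control siRNA the mean of Rel went with heat from 1.01 to 1.90 FPKM and that of Traf6 from 4.10 to 14.2 FPKM. Under YAP/TAZ siRNA these means went from 0.992 to 0.991 FPKM and from 3.97 to 4.06 FPKM.

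On the chromosome, Prkcq has few expressed genes near it. Gm36932, Gm37520 and Gm37766, which lie within its introns, reached at most 0.038 FPKM. Kin, which encodes a DNA- and RNA-binding protein, lies 1079302 bases before Prkcq and was not called without heat (0.17 ± 0.13, limma adjusted p = 0.288). After heat it measured -0.44 ± 0.14 (limma adjusted p = 0.0238), and the call ended without heated control replicate 1 (-0.42), heated control replicate 3 (-0.46) or heated YAP/TAZ siRNA replicate 1 (-0.35). The processed pseudogene Gm13292, 107809 bases beyond Prkcq, fell without heat by 0.58 ± 0.08 (limma adjusted p = 2.3e-04), and its reads may belong to its parent gene.

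The other family members were low in these cells or moved little. Igf2bp3 measured 3.18, 3.06 and 3.34 FPKM in unheated control libraries and 2.21, 2.81 and 2.31 FPKM in unheated YAP/TAZ siRNA libraries. Its difference without heat was -0.29 ± 0.10 (limma adjusted p = 0.0444), a call that ended in 10 of 16 alternatives, and after heat it was -0.02 ± 0.12 (limma adjusted p = 0.899). Igf2bp2 was too low to be tested. It measured 0.0305, 0.0414 and 0.0370 FPKM in unheated control libraries, 0.392 and 0.372 FPKM in heated control libraries, 0 in all unheated YAP/TAZ siRNA libraries and 0.0105 to 0.0237 FPKM in heated YAP/TAZ siRNA libraries.

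Of 14 genes listed as the IGF2BP family, its partners in ribonucleoprotein particles and the N6-methyladenosine writers, 12 were tested. Without heat 7 fell and 5 were not called (median -0.38), where 21.9% of all genes tested fell. After heat 2 fell and 4 rose (median 0.09), where 17.9% of all genes fell and 36.3% rose. That split depends on the scaling and on 1 library. After median-of-ratios scaling 4 fell and 1 rose, after quantile normalization 4 fell and 2 rose, and without heated control replicate 1 no rise was called. Hmga2, an architectural chromatin gene of fetal tissue, fell by 1.67 ± 0.07 without heat (limma adjusted p = 3.0e-07) and by 1.02 ± 0.08 after heat (limma adjusted p = 8.2e-06). The helicase gene Dhx9 fell by 0.39 ± 0.07 and 0.61 ± 0.08, and the nuclear ribonucleoprotein gene Hnrnpu fell without heat by 0.41 ± 0.08.

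Lin28b, an inhibitor of let-7 processing, fell without heat by 0.30 ± 0.06 (limma adjusted p = 0.00206). Its call after heat (0.19 ± 0.06, limma adjusted p = 0.0288) ended in 8 of 17 alternatives. The methyltransferase subunit genes Mettl3 (0.46 ± 0.13, limma adjusted p = 0.0156) and Wtap (0.31 ± 0.09, limma adjusted p = 0.0149) were called higher after heat. Those calls ended without heated control replicate 1 (0.41 for Mettl3 and 0.23 for Wtap). The call for Mettl3 also ended with the 2 heated groups alone (0.46), and the call for Wtap under both other scalings (0.19 and 0.20).

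Of 11 mRNAs listed as bound by IGF2BP1, 7 were tested. Without heat 3 fell and 1 rose (median -0.04), and after heat 3 fell and 2 rose (median -0.19). The shares over all genes tested were 21.9% lower and 27.1% higher without heat, and 17.9% and 36.3% after heat. Myc fell by 0.94 ± 0.09 without heat (limma adjusted p = 3.2e-05) and by 0.75 ± 0.10 after heat (limma adjusted p = 2.6e-04). Srf, the gene of serum response factor, fell by 0.30 ± 0.07 and 0.59 ± 0.08. Actb, a classic IGF2BP1-bound mRNA, fell without heat by 0.56 ± 0.15 (limma adjusted p = 0.0116) and measured -0.09 ± 0.17 after heat (limma adjusted p = 0.664). The adhesion receptor gene Cd44, another mRNA of the list, rose by 0.54 ± 0.08 and 0.93 ± 0.09, and Btrc, a ubiquitin ligase adaptor gene, rose after heat by 0.49 ± 0.06.

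Mir3063, which lies whole within an exon of Igf2bp1, reached 0.138 FPKM, and the antisense gene Gm29202 was listed at 0 in every library. Zfp652, a zinc finger gene 122048 bases before Igf2bp1 on the chromosome, rose after heat by 0.26 ± 0.06 (limma adjusted p = 0.00528). Its call without heat (0.15 ± 0.06, limma adjusted p = 0.0484) ended in 16 of 16 alternatives. Snf8, a sorting complex gene 28945 bases on the other side, was not called in either comparison (0.21 ± 0.09 and 0.21 ± 0.10).

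Likeness to each member was measured by the Pearson correlation of log2(FPKM + 1) over the 11 libraries, given as a description. The libraries fall into 4 groups, so the points are not independent. The unheated libraries among them also chose the members, which favours high correlations between the members. Tg and Prkcq correlated at 0.996, Tg and Igf2bp1 at 0.984, and Prkcq and Igf2bp1 at 0.978. The genes most like Tg were Adh7 (0.997), Prkcq (0.996), Pcolce, Serpinb9b and Retsat (0.993 each). Those most like Prkcq were Tg and Pcolce (0.996 each), Adh7 and Cers2 (0.992 each) and Ergic1 (0.991).

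For Igf2bp1 the genes most alike were Cp (0.994), P4ha2 (0.989), Kif5b (0.988), Noct (0.987) and Adh7 (0.986). A correlation over 0.9 was reached by 326 genes for Tg, 338 for Prkcq and 271 for Igf2bp1. In the genes named as most alike that are not members, the size of the difference was smaller than in the members. Without heat, that follows from how the members were chosen. Adh7, an alcohol dehydrogenase gene, differed by -1.53 without heat and -1.40 after heat, and Retsat, the gene of retinol saturase, by -0.60 and -0.56.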

How the data were processed

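RNA of 11 libraries was analysed from 1 table of FPKM per gene, as the authors deposited it. Tools listed in the submitters' processing notes, without their roles, are HISAT2, StringTie, SAMtools, Trimmomatic 0.36 and DESeq2, and the build listed is GRCm38. For settings and strandedness the sources used here give nothing, so genes that overlap on opposite strands cannot be separated. Of low values of genes with 1 transcript, 32.6 to 39.3% were whole multiples of the smallest step (within 0.02), so reads were not recovered. Gene structures came from GENCODE M21 (GRCm38), and 54038 of 54104 Ensembl identifiers matched a symbol.

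Values were analysed as log2(FPKM + 1) for genes that reached 1 FPKM in 2 or more libraries. One limma fit (limma 3.58.1, R 4.3.3, empirical Bayes with trend) held all 4 groups, with Benjamini-Hochberg adjustment over 12626 genes, and adjusted p under 0.05 was called. The members and gene lists were chosen with earlier results of these data known. Named genes were the siRNA targets, close relatives, neighbours in place and on the chromosome, the 5 most correlated genes and, per list and comparison, up to 4 called genes with the smallest p. Of these, 2 genes are not reported here. Alternatives were pseudocount 0.1, no filter, a filter at 5 FPKM, 2 scalings, a replicate block, heated groups alone and leaving out each library. Tables and figures used pandas 2.3.3, numpy 2.4.6 and matplotlib 3.10.9 under Python 3.11.15.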

Additional observations from a re-analysis of the deposited data

Results flagged for a closer look

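Among the 41 named genes other than the members that were tested, the siRNA difference itself differed between heated and unheated cells in 19, by the interaction term of the limma fit (adjusted over all genes tested, where 37.9% were called). The values that follow are the log2 difference after heat minus that without heat. No member is among them, because the unheated libraries chose the members.

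Among YAP/TAZ-TEAD targets it was -1.13 for Ccn1, -1.50 for Ccn2, -0.82 for Amotl2, -0.77 for Tgfb2, -1.54 for Gadd45b and 0.56 for F3. In the lists around Tg and Prkcq it was -1.48 for Slc5a5, 0.43 for Stk39, 0.30 for Card14, -0.53 for Rel and -1.61 for Traf6. In the lists around Igf2bp1 it was 0.65 for Hmga2, 0.49 for Lin28b, 0.38 for Wtap, 0.39 for Cd44 and 0.47 for Btrc. Among chromosomal neighbours it was -0.38 for Phf20l1, -0.61 for Kin and 0.48 for Gm13292. The values for Slc5a5 and Ccn2 are descriptions. Slc5a5 passed the filter only through the heated control libraries, and Ccn2 only through control siRNA libraries.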

How the results depend on the processing

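The differences of Tg, Prkcq and Igf2bp1 after heat kept their direction and call in 54 of 54 alternatives, with limma adjusted p from 6.2e-08 to 4.9e-04, the highest with the 2 heated groups alone. They ranged from -3.35 (pseudocount 0.1) to -2.36 for Tg, from -2.05 to -1.80 for Prkcq and from -4.17 to -2.38 for Igf2bp1. Leaving out single libraries gave -2.49 to -2.36 for Tg, -1.88 to -1.80 for Prkcq and -2.64 to -2.38 for Igf2bp1. The count of genes called lower after heat (2266) was 4407 with no filter and 1449 with a filter at 5 FPKM, and 1700 to 2329 when single libraries were left out. Without heat (2761) the last range was 2418 to 2818.

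Little pairing by replicate number was seen: deviations of same-numbered libraries correlated at -0.11 to 0.13, above 0.1 in 3 of 15 pairs. Weak correlations cannot show that the libraries were not paired. With a replicate block the differences after heat were -2.40 for Tg, -1.86 for Prkcq and -2.53 for Igf2bp1. With this block 2429 genes were called lower after heat and 2939 without heat, in place of 2266 and 2761.

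Of 1407 values of single other genes, 1308 kept direction and call, 71 lost the call, 14 gained one and 14 changed sign. The sign changes concern differences that were not called. With single libraries left out, the values ranged from -0.080 to 0.077 for Rel, from -0.159 to 0.214 for Traf6 and from -0.042 to 0.026 for Mettl3 without heat, and from -0.287 to 0.082 for Actb, from -0.130 to 0.069 for Igf2bp3 and from -3.521 to 1.443 for mt-Ts2 after heat. Under median-of-ratios scaling they were -0.034 for Stk39 after heat and -0.034 for Btrc without heat, and under quantile normalization -0.100 for Btrc and -0.063 for Gadd45b without heat. The cause was not tested. With 2 heated control libraries, leaving out either leaves 1, which is assumed to vary like the other groups.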
